A study of Mus musculus with 6 samples.

Results

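The AP-1 transcription factor family was followed through the adrenal glands of Chga knockout and wild-type mice by 8 genes: Fos, Fosb, Fosl1 and Fosl2 of the Fos branch, Jun, Junb and Jund of the Jun branch, and Atf3. The family was chosen with earlier results of these data known. Its probe sets are all those that the platform annotation gives to these 8 of the 8251 named genes on the array. The 8 genes had 12 probe sets, all of which are reported. Chga encodes chromogranin A, a protein of the hormone storage granules of chromaffin cells, and the series asked how adrenal gene expression differs in mice that lack it. Both groups were male mice aged 12 weeks, with 3 arrays of Chga knockout adrenals and 3 arrays of wild-type adrenals. The labels name the knockout line only by its source publication, and its genetic background is not given in the sources used here. Each array was read as 1 mouse, since the series gives 3 mice a group.

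AP-1 is a dimer of 2 basic leucine zipper (bZIP) proteins that binds short DNA elements in promoters and enhancers. Jun proteins can pair with themselves, with Fos proteins or with Atf3, whereas Fos proteins need a Jun partner. Fos, Fosb, Junb and Atf3 belong to the immediate early or stress-inducible genes, which are transcribed within minutes of a stimulus such as nerve input, a hormone or handling stress, and Jund is known for steadier expression. In the adrenal gland AP-1 is known as a nuclear response of chromaffin cells to nerve stimulation and of cortical cells to corticotropin.

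The promoter windows of the 4 genes with a probe set on which every knockout array lay above every wild-type array are shown first. Transcription of early genes driven by cAMP or calcium is known to act through the cAMP response element. The part of this element in the array values was not tested. Each sequence is a RefSeq window of assembly GRCm38.p6 running from 250 bases before the annotated start of the gene, 5′ to 3′, and capitals mark the half-site TGACG on either strand. The order is Junb (chr8:84978699-84978998, minus strand), Fos (chr12:85473640-85473939, plus strand), Atf3 (chr1:191183284-191183583, minus strand) and Fosb (chr7:19309996-19310295, minus strand).
Junb: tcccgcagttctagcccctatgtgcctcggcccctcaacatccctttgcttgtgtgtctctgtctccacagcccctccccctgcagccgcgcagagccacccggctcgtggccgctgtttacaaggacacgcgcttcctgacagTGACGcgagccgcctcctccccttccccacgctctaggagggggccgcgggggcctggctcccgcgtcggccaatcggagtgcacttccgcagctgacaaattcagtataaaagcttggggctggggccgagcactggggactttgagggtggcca
Fos: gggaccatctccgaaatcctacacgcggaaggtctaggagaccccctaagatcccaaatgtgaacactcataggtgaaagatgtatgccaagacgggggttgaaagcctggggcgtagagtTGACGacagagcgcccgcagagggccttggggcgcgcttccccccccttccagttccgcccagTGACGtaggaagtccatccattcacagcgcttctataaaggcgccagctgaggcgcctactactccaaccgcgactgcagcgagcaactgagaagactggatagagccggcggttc
Atf3: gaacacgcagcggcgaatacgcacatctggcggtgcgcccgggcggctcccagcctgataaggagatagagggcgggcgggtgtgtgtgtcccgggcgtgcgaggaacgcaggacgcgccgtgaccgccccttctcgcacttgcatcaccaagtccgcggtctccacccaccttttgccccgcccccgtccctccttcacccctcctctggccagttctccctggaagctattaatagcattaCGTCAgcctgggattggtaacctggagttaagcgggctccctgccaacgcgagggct
Fosb: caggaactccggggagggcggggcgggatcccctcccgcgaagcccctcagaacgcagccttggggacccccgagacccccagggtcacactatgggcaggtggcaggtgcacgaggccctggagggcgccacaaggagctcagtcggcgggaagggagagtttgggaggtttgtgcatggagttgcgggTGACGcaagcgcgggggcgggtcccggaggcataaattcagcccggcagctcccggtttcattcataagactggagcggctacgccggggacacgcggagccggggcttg

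The sequence table held windows for 7 members, all but Fosl1. The half-site was found in the windows of Junb, Fos, Atf3 and Fosb, and in none of those of Jun, Jund and Fosl2. Of all 32851 promoter windows of the same length, 20.8% held it on one strand or the other. In Fos it began 129 and 66 bases before the start, in Junb 106, in Fosb 60 and in Atf3, on the other strand, 7 bases before it. The full palindrome TGACGTCA, which contains the half-site, was in 0 of the 7 windows and in 1.79% of all. Only exact letters were counted, so near matches such as TGACATCA in the Jun window were left out. The TPA response element TGANTCA, the classical AP-1 binding element, was in 0 of 7 and in 7.81% of all, and the CArG box of serum response factor in 0 of 7 and in 1.63% of all. These motifs were searched on both strands after the values were known, and a match describes letters, not binding. Sites more than 250 bases before the start lie outside the windows, so a 0 does not mean that a gene lacks the site.

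**Figure D1:**
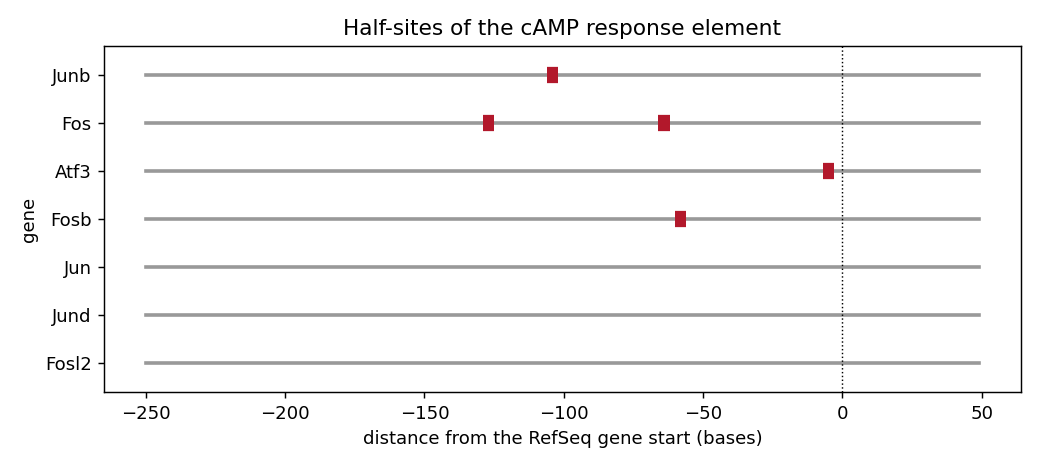
Positions of the half-site TGACG, on either strand, in the promoter windows of 7 AP-1 genes. The horizontal axis is the distance from the RefSeq gene start in bases, grey lines are the windows and red bars the matches: Fos has a pair of matches, Junb, Atf3 and Fosb have 1 each, and Jun, Jund and Fosl2 have none.

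The labels were first checked by the deleted gene. Chga read 1188, 858 and 951 on its brighter probe set in knockout arrays 1 to 3, against 46719, 30213 and 35306 in wild-type arrays 1 to 3. Markers of the adrenal cortex (7 of 8 on the array) summed to between 497411 and 575251 in knockout and between 471631 and 570898 in wild-type arrays, and those of chromaffin cells (5 of 8) to between 201281 and 218114 against 171944 to 187529. Of these 5 only Chgb, the brightest, separated the groups (93585, 120199 and 98209 in knockout, 69305, 77123 and 76133 in wild type). Th, Scg2, Cyb561 and Pnmt overlapped, with log2 changes of 0.12, 0.15, 0.20 and -0.23. Skeletal muscle markers (12 of 12 on the array) summed to 10678, 83131 and 42586 in knockout arrays 1 to 3, against 11002 to 11456 in wild-type arrays. Acta1, skeletal muscle actin, read 565, 32131 and 13869 in knockout arrays 1 to 3, against 180, 180 and 29.1 in wild-type arrays. In this marker knockout array 1 too lay above every wild-type array. For the Gapdh control probe sets the 3′ signal divided by the 5′ signal, a sign of RNA integrity, was 0.831, 1.30 and 1.29 in knockout arrays 1 to 3 and lay between 0.762 and 0.807 in wild-type arrays. The same ratio for actin was 1.32, 1.70 and 1.72 in knockout arrays 1 to 3 and between 1.14 and 1.22 in wild-type arrays, so that knockout array 1 too lay above every wild-type array in both ratios. Knockout arrays 2 and 3 stood furthest apart in muscle transcripts and in both end ratios, and results are also given with knockout array 1 alone. In that comparison only the wild-type arrays supply the spread, and the lone knockout array is assumed to vary like them. No listed marker read 0 on any array.

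Of the 12 AP-1 probe sets, 8 were bright enough on average to be tested (a mean signal of about 582 or more on the log2 scale), and they stood for 7 genes. The lowest wild-type mean among these 8, on the same scale, was 599, so that none passed through its knockout values alone. Among these 8, 4 probe sets of 3 genes rose in the knockout adrenal, Junb with both, Fos and Atf3, and 0 fell (limma, Benjamini-Hochberg adjusted p under 0.05). Over all 7453 probe sets tested, 0.161% rose and 0.282% fell by the same rule. At an unadjusted p under 0.05 the family had 5 probe sets, all higher, where 11.3% of all tested probe sets passed in either direction. All 3 knockout arrays lay above all 3 wild-type arrays on 5 of the 8 tested probe sets (7.55% of all tested) and on 6 of all 12 (6.57% of all 12422 probe sets). The median log2 change of the 8 tested AP-1 probe sets was 1.21, and that of all tested probe sets was -0.01. Since the family was chosen with earlier results known, these comparisons are a description and no independent evidence. In whole glands a change in the number of cells that express a gene and a change in its RNA per cell cannot be told apart.

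**Figure D2:**
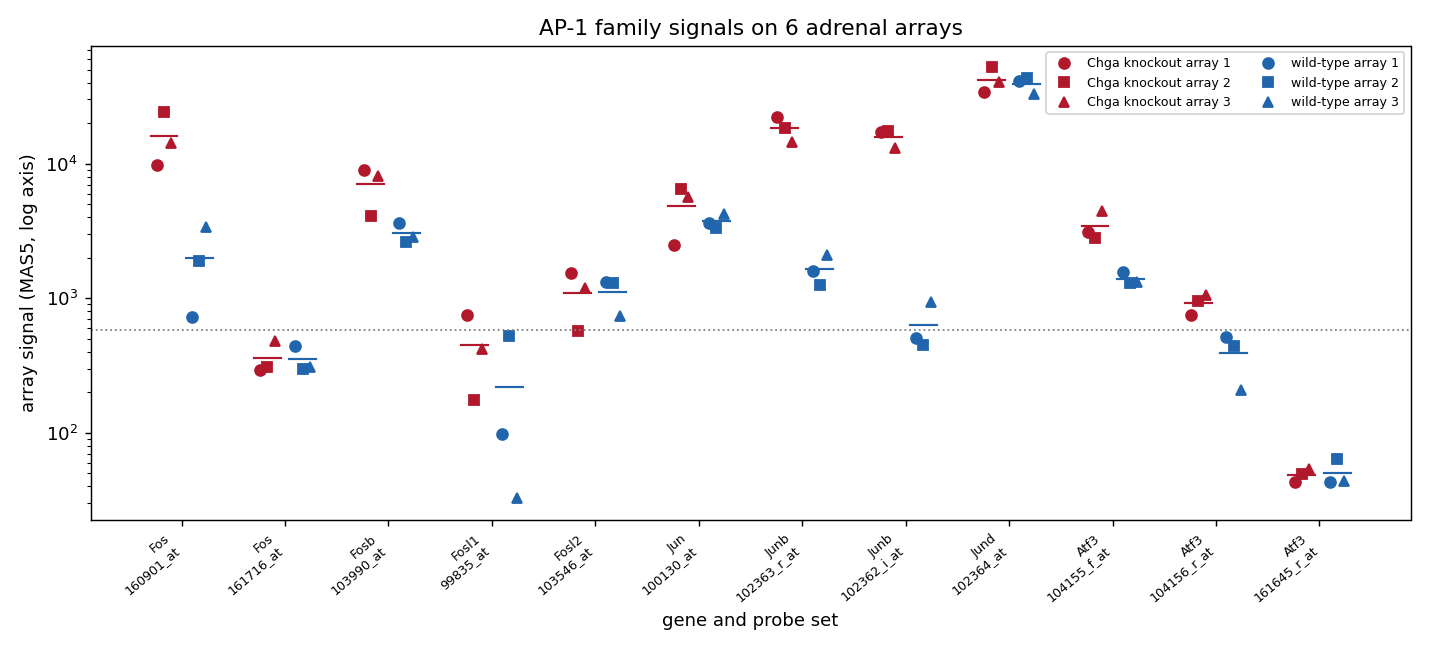
Array signals of the 12 AP-1 probe sets on a log axis, with red symbols for the 3 Chga knockout arrays, blue symbols for the 3 wild-type arrays and short lines for the group means. The dotted line marks the brightness filter at about 582; the groups are fully apart on both Junb probe sets, on 1 of 2 Fos, on 2 of 3 Atf3 and on the Fosb probe set, and overlap on the other 6.

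Within the Jun branch the 3 genes differed. Junb encodes a subunit that is known as a weaker activator than c-Jun on single sites and can oppose it. Its brighter probe set, 102363_r_at, read 22105, 18518 and 14592 in knockout arrays 1 to 3, against 1597, 1254 and 2105 in wild-type arrays 1 to 3. The lowest knockout value was several times the highest wild-type value, and the spread within each group was small beside the gap. This is an 11.1-fold rise (log2 change 3.48 ± 0.22 SE, limma adjusted p = 0.000139).

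The second Junb probe set, 102362_i_at, comes from the same transcript record and so is no independent measure. It read 17080, 17583 and 13046 in the knockout arrays and 506, 452 and 939 in the wild-type arrays. The log2 change was 4.68 ± 0.27 (SE), and the adjusted p 7.60e-05. Both sets separated the groups in the same direction, by changes of different size. With knockout array 1 alone, the differences were 3.76 and 4.80, with no spread of the knockout group behind them. On that array muscle markers summed to less than on any wild-type array, though Acta1 read above them all. Both Junb calls held in each of the 17 alternative fits with more than 1 array a group, with adjusted p between 0.000109 and 0.00476 for the brighter and between 3.94e-05 and 0.00482 for the dimmer set.

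Jun, the gene of c-Jun and the founding AP-1 subunit, did not pass. It read 2495, 6504 and 5662 in knockout arrays 1 to 3, against 3626, 3328 and 4255 in wild-type arrays. Knockout array 1 lay below every wild-type array and knockout arrays 2 and 3 lay above them all, so the groups overlapped (log2 change 0.28 ± 0.32, adjusted p = 0.783). The low array is the one with the fewest muscle transcripts and the lowest Gapdh end ratio among knockout arrays, and the part of either in this order was not tested. The log2 change was -0.57 with knockout array 1 alone and -0.74 with that ratio as a covariate (adjusted p = 0.953 and 0.619, in a range of 0.0905 to 0.996 over the alternatives). Without knockout array 1 it was 0.70 (unadjusted p = 0.0033, adjusted p = 0.0905), and it ran from 0.016 to 0.70 when each array was left out.

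Jund, a subunit known for constitutive expression, was bright on every array and did not pass either. It read 33843, 51864 and 40549 in knockout arrays and 41004, 43208 and 32968 in wild-type arrays. The groups overlapped fully, with a log2 change of 0.10 ± 0.18 (adjusted p = 0.873), and its sign turned in 4 of the alternatives.

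The change of Junb relative to its relatives was read within each array. The log2 ratio of Junb to Jun averaged 2.0 ± 0.99 over the knockout arrays and -1.19 ± 0.19 over the wild-type arrays (SD, n = 3 each), a difference of 3.20. For Junb to Jund the difference was 3.38. Both ratios were higher on each knockout array than on any wild-type array. The two-sided exact permutation p was 0.1, the smallest that 3 against 3 arrays allow, and 0.125 adjusted over the 5 gene pairs compared. These ratios were added after the data were seen. They rest on the Junb values that already separated the groups, so they are no further evidence.

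**Figure D3:**
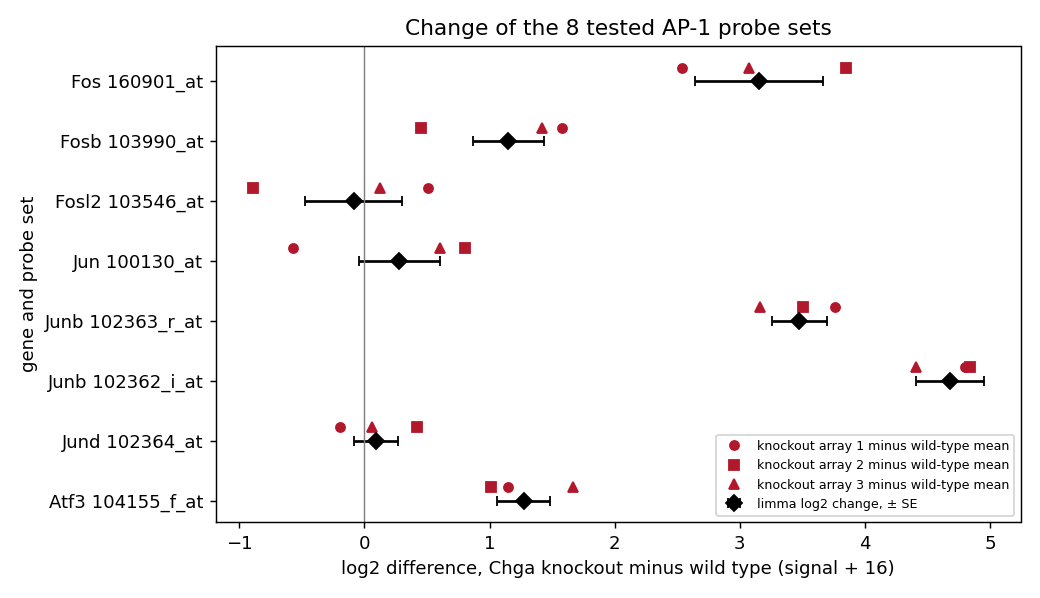
Log2 difference between Chga knockout and wild type for the 8 tested AP-1 probe sets, on the log2(signal + 16) scale. Black diamonds are limma log2 changes with their standard errors and red symbols are single knockout arrays minus the wild-type mean: all 3 lie above 0 for Fos, Fosb, both Junb sets and Atf3, and on both sides of 0 for Fosl2, Jun and Jund.

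In the Fos branch the gene Fos itself had the largest rise. Fos encodes c-Fos, the standard marker of recent stimulation. Its brighter probe set, 160901_at, read 9734, 24102 and 14126 in knockout arrays 1 to 3, against 720, 1885 and 3362 in wild-type arrays 1 to 3. The groups did not overlap, but values spread 2.48-fold among knockout and 4.67-fold among wild-type arrays, the widest spread of any tested member in wild type. The rise was 8.89-fold (log2 change 3.15 ± 0.51, adjusted p = 0.0403).

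The call of Fos was near the threshold and was lost without knockout array 2, knockout array 3 or wild-type array 2 (adjusted p = 0.160, 0.197 and 0.122), with no filter, without the intensity trend or with robust variances (0.0735, 0.124 and 0.0742), in a range of 0.00244 to 0.670 over the alternatives. The change was 2.56 without wild-type array 1 (adjusted p = 0.0271), 2.54 with knockout array 1 alone and 2.40 with the Gapdh end ratio as a covariate (adjusted p = 0.637 and 0.670). The highest Fos value fell on knockout array 2, which also had the highest muscle marker sum and the highest Gapdh end ratio. The part of either in that value was not tested. The other Fos probe set, 161716_at, for which the annotation lists no sequence record, showed no such difference. It read 294, 310 and 481 in knockout and 445, 300 and 311 in wild-type arrays, under the brightness filter, so the 2 probe sets of Fos disagree.

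Fosb, whose protein and its truncated form are known to build up under repeated stimulation, read 8995, 4109 and 8044 in knockout arrays 1 to 3, against 3602, 2628 and 2854 in wild-type arrays. Every knockout array lay above every wild-type array, knockout array 2 only narrowly. Its log2 change was 1.15 ± 0.28 (SE), which missed the threshold (adjusted p = 0.192). It passed without knockout array 2, at 1.5 (adjusted p = 0.0274), and with a replicate block (adjusted p = 0.0461), in a range of 0.0274 to 0.557 over the alternatives.

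Fosl2, the gene of Fra-2, read 1545, 576 and 1186 in knockout arrays and 1312, 1308 and 742 in wild-type arrays. The groups overlapped (log2 change -0.09 ± 0.39, adjusted p = 0.956), and the sign of this value turned in 5 of the alternatives. Fosl1, the gene of Fra-1, stayed under the brightness filter. It read 754, 176 and 422 in knockout and 98.9, 520 and 32.8 in wild-type arrays, overlapping groups with a 15.9-fold spread in wild type.

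Relative to one another, the Fos branch genes were read within arrays as well. The log2 ratio of Fos to Fosl2 differed by 3.24 and that of Fosb to Fosl2 by 1.24 between knockout and wild type, with every knockout array above every wild-type array (exact permutation p = 0.1, adjusted p = 0.125). The ratio of Fosb to Fosl2 was narrow among knockout arrays, at 2.69 ± 0.14, against 1.45 ± 0.46 in wild-type arrays (SD, n = 3 each). The difference for Fos to Fosb was 2.0, with overlapping arrays (exact permutation p = 0.2, adjusted p = 0.2). Like those of Junb, these ratios were added after the data were seen and are no further evidence.

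Atf3, a stress-inducible bZIP factor that acts as a repressor when paired with itself, had 1 tested probe set out of 3. That set, 104155_f_at, read 3094, 2814 and 4446 in knockout arrays 1 to 3, against 1578, 1295 and 1311 in wild-type arrays. The groups did not overlap and the rise was 2.42-fold (log2 change 1.27 ± 0.21, adjusted p = 0.0450). A second set, 104156_r_at, comes from the same transcript record and so is no independent measure. It was too dim on average to be tested, and read 745, 947 and 1055 in knockout against 517, 444 and 208 in wild-type arrays. These values did not overlap, but with no filter the set did not pass (log2 change 1.28 ± 0.40, limma adjusted p = 0.415). The third, 161645_r_at, read between 42.9 and 53.4 in knockout and between 43.4 and 63.8 in wild-type arrays, near the bottom of the scale.

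Of the 3 called genes, Atf3 lost its call most often. This was so in 9 of the 17 alternatives with more than 1 array a group, among them leaving out any array other than knockout array 1 (adjusted p from 0.0560 to 0.165), and with knockout array 1 alone (0.402), in a range of 0.0284 to 0.585, although its log2 change stayed between 1.08 and 1.41. By the array maker's naming, the letters i and r in a probe set's name mark relaxed design rules and f marks probes that can match related sequences, which applies to every Junb and Atf3 probe set here.

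**Figure D4:**
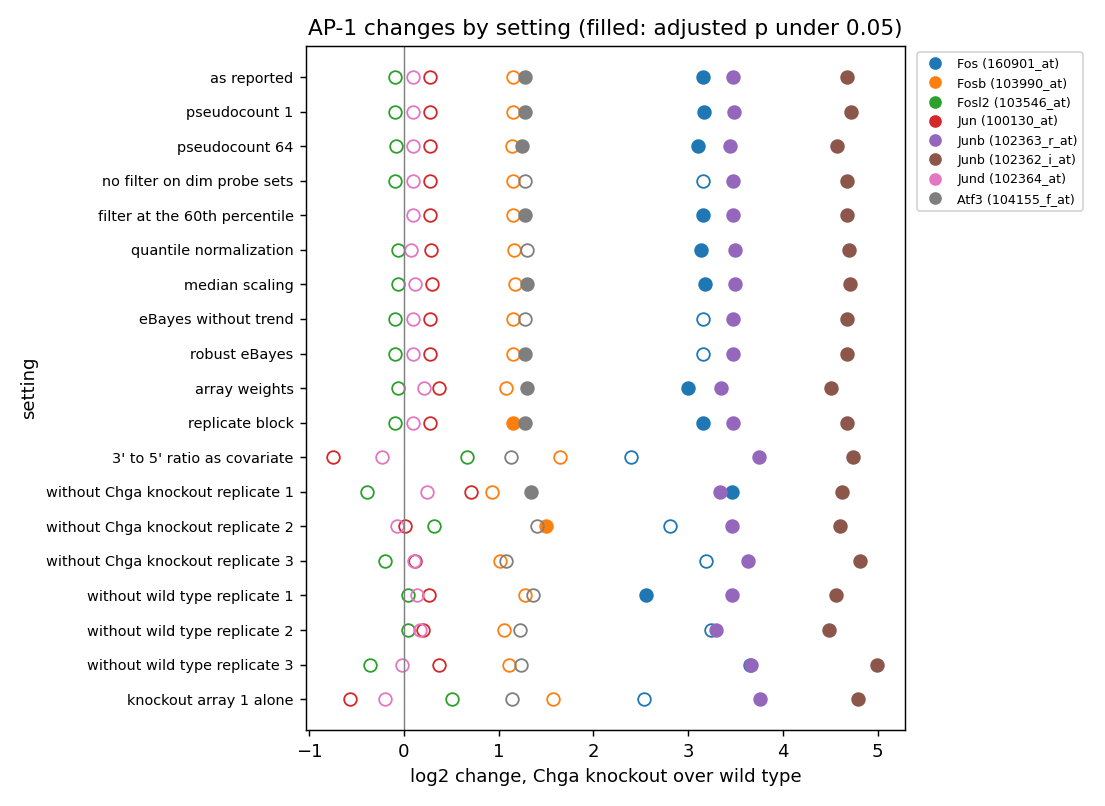
Log2 change of the 8 tested AP-1 probe sets (colours) under the reported fit and its alternatives (rows), with filled circles where the limma adjusted p was under 0.05. Both Junb sets are filled in every row (with knockout array 1 alone, only wild-type arrays supply the spread), Fos and Atf3 in 10 and 8 of the 18 alternatives, and Fosb in 2, while Jun, Jund and Fosl2 scatter around 0.

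Beyond the 8 genes, other parts of the AP-1 system were read from the same fit, each gene by its brightest tested probe set. Over all tested probe sets 11.3% had an unadjusted limma p under 0.05 in either direction. The other bZIP factors, which include dimer partners of AP-1, held 16 tested genes, of which 0 passed and 1 had an unadjusted p under 0.05. That gene was Mafk, a small Maf protein, with a log2 change of 0.55 (adjusted p = 0.346). Crem, a cAMP-responsive modulator that includes an inducible repressor form, had a value of 0.45 (adjusted p = 0.508), and the CCAAT-binding factor gene Cebpd one of 0.30 (adjusted p = 0.510). The values were 0.38 for Atf5 and 0.60 for Nfil3, a bZIP repressor. The list's median was 0.14.

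Genes of kinases and cofactors that act on AP-1 had 17 tested members, of which 0 passed in limma and 4 had an unadjusted p under 0.05 (11.3% of all tested probe sets). Map3k1, at the head of the c-Jun kinase cascade, had a value of 0.68 (log2 change, adjusted p = 0.386), and Prkacb, a catalytic subunit of protein kinase A, one of 0.32 (adjusted p = 0.408). Map2k4, which phosphorylates c-Jun kinases, had a value of -0.61 (adjusted p = 0.420), the coactivator gene Crebbp 0.40 and the c-Jun kinase gene Mapk9 -0.49. The median was 0.11, and transcript levels say nothing of kinase activity.

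Known AP-1 target genes had 23 tested members and 0 passed, with 3 at an unadjusted limma p under 0.05. That count is near the 11.3% of all tested probe sets. Penk, the enkephalin precursor of chromaffin cells, read 8434, 12068 and 12820 in knockout and 5451, 3964 and 6054 in wild-type arrays, without overlap (log2 change 1.10 ± 0.21, adjusted p = 0.0785). Npy, the neuropeptide Y gene, had a value of 0.78 (adjusted p = 0.269). Hmox1, heme oxygenase 1, read 4787, 12190 and 13669 in knockout arrays 1 to 3, against 4808 to 5134 in wild-type arrays. Its high values thus fell on knockout arrays 2 and 3, the arrays with the highest muscle marker sums, and it missed the threshold at a log2 change of 0.91 (adjusted p = 0.397). The metallothionein gene Mt1 had a value of 0.52 and the adhesion receptor gene Cd44 one of -0.72. The median of the list was 0.15, close to those of both preceding lists.

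Other early-response genes, MAP kinase phosphatases among them, were the list with calls: 5 of 19 tested genes rose, and 0 fell. Over all tested probe sets 0.161% rose and 0.282% fell. The genes that rose were Egr1 (log2 change 1.94), Gadd45b (2.84), Btg2 (1.69), Klf4 (1.61) and Ier3 (2.42), and the list's median was 0.99. Of the phosphatase genes tested, Dusp1 read 13854, 28151 and 24265 in knockout against 8246, 8339 and 9662 in wild-type arrays. It missed the threshold at a log2 change of 1.28 (limma adjusted p = 0.0732), and Dusp2 overlapped (-0.03). Dusp6 went the other way, at 10015, 8345 and 8224 in knockout against 14422, 16447 and 14515 in wild-type arrays. Its log2 change was -0.77 (limma adjusted p = 0.0592). Myc, at -0.49, also lay below every wild-type array on each knockout array. Dusp6 and Myc were the only 2 of the 19 genes to do so, and 13 lay above. Over all tested probe sets 7.55% lay above in this way. This list was drawn up with earlier results of these arrays known and is not independent evidence of its direction.

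**Figure D5:**
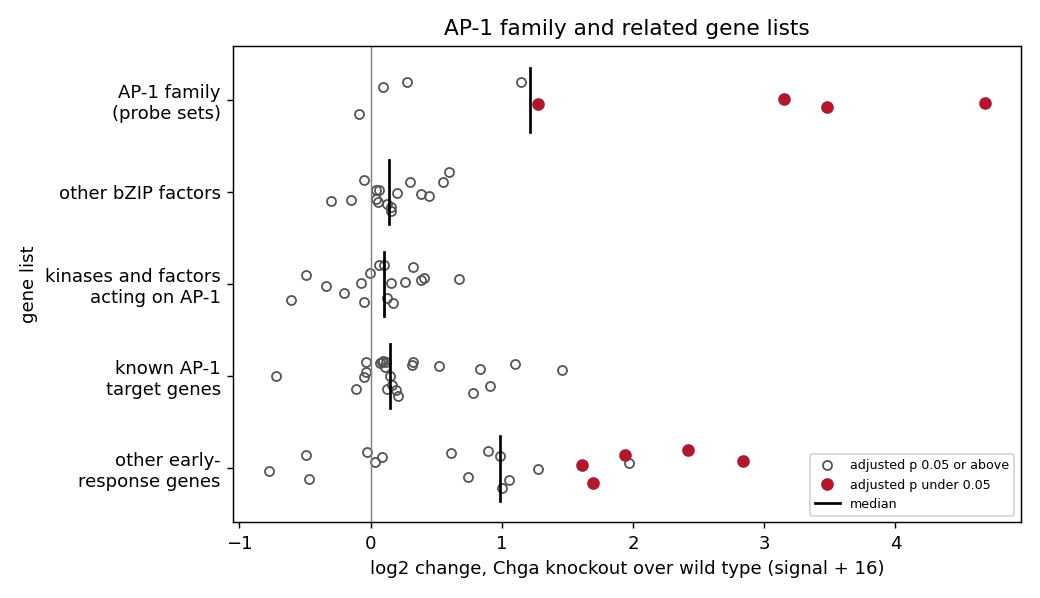
Log2 change of each tested AP-1 probe set (top) and of each tested gene of 4 related lists, with filled red circles where the limma adjusted p was under 0.05 and black bars at the medians. The median is 1.21 for the AP-1 probe sets and 0.99 for other early-response genes, and 0.14, 0.11 and 0.15 for the lists of other bZIP factors, kinases and cofactors, and target genes.

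Genes with the most similar pattern over the 6 arrays were listed for Junb and for Fos by Pearson correlation of log2 signals, as a description in which the difference between the groups carries most of the likeness. Nearest to Junb were Egr1 (r = 0.991), the kinase gene Pim3 (0.987), Rgs2, which dampens G protein signalling (0.986), the matrix proteoglycan gene Dcn (0.984) and the focal adhesion gene Tns2 (0.984). Egr1, Pim3 and Rgs2 rose (adjusted p = 0.000861, 0.0317 and 0.00948), while Dcn and Tns2 had values of 0.73 and 0.73 and did not pass. Nearest to Fos were Map11 (r = 0.987), the adhesion molecule gene Cadm1 (0.987), the transcription factor gene Mef2a (0.976), Zfp36 (0.976), whose protein destabilises AU-rich mRNAs, and the adhesion gene Alcam (0.971). None of these 5 passed, and Mef2a, with 3308, 4927 and 3336 in knockout and 1724, 2096 and 2445 in wild-type arrays, peaked on knockout array 2 as Fos did.

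Markers of macrophages (10 of 10 on the array) summed to between 17701 and 28940 in knockout and between 14159 and 17689 in wild-type arrays, and those of endothelium (8 of 8) to between 31841 and 41271 against 29898 to 31192. In both lists knockout array 1 was the lowest knockout array and lay close to the highest wild-type array. Fibroblast markers (6 of 6, Dcn among them) summed to between 55576 and 66941 in knockout and between 39537 and 53524 in wild-type arrays, with every knockout array above every wild-type array. Dcn, the brightest of the 6, read 31400, 31014 and 25764 in knockout against 17569, 16161 and 19427 in wild-type arrays. Pdgfra separated the groups too, while Col1a1, Col1a2, Col3a1 and Lum each overlapped. The sums overlapped between the groups for lymphocytes (6 of 8, 5613 to 6604 in knockout against 3623 to 5695 in wild type), adipocytes (6 of 8, 32626 to 58655 against 27705 to 51106) and erythroid cells (4 of 7, 74588 to 109561 against 83789 to 172719). The part of these cell types in the AP-1 values was not tested.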

How the data were processed

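Adrenal RNA of 3 Chga knockout and 3 wild-type mice was measured on single-colour arrays, grouped by sample title. The authors deposited linear intensities (1 for each probe set), for which the submitters' processing notes name MAS5, without a version or scaling target. The trimmed mean was 2501 on every array, so they were not normalized again. Of 12488 probe sets, 66 controls were left out. Symbols came from the platform annotation, updated by Entrez identifier with RefSeq (GRCm38.p6); 10833 probe sets had 1 symbol, 396 several and 1193 none listed. The files name no genome build.

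Signals were analysed as log2(signal + 16), which understates changes of dim genes. Probe sets under the 40th percentile of mean log2 signal over all arrays were left out, which kept 7453. Differences were tested by limma 3.58.1 under R 4.3.3 (lmFit, eBayes with trend), using Benjamini-Hochberg adjustment over all of them, at 0.05. The fit was tested on simulated data. No 2 arrays held identical values; r between arrays lay between 0.910 and 0.956 across probe sets. The number of arrays limits the precision.

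Members and lists were chosen with earlier results of these data known. Named are every member probe set, Chga, and the 5 genes most like Junb and Fos. From each list the genes past the threshold are named, then those of smallest p up to 5 a list. Named beyond this rule, after their values were seen, were Dusp1, Dusp2, Dusp6, Myc and further bZIP genes in the last section. Alternatives were pseudocounts of 1 and 64, other filters, quantile and median scaling, other variance models, array weights, a replicate block, a 3′ to 5′ covariate, each array left out and knockout array 1 alone. Promoter windows are RefSeq's. Ratios between members were added after seeing the data, as were the motifs.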

Additional observations from a re-analysis of the deposited data

How the results depend on the processing

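Both Junb probe sets kept their direction and their call in the 17 alternatives with more than 1 array a group, and also passed with knockout array 1 alone, where only wild-type arrays supply the spread. The number of AP-1 probe sets past the threshold, 4 as reported, was 2 with the 3′ to 5′ covariate, without the intensity trend, with knockout array 1 alone and with no filter, and 2 to 4 when each array was left out. The number of called genes in the 4 related lists, 5 as reported, was 2 with the covariate and with knockout array 1 alone, 3 without trend, 8 with array weights, 9 with the replicate block and 3 to 9 when each array was left out. Over all probe sets the count, 33 as reported, was 12, 13, 17 and 57 with the covariate, knockout array 1 alone, no trend and the replicate block, and 15 to 141 when each array was left out; it was 15 without knockout array 3, 17 without wild-type array 2, 21 without wild-type array 3 and 141 without knockout array 1. Signs turned only for members that did not pass: Fosl2, Jun and Jund were 0.67, -0.74 and -0.23 with the covariate and 0.50, -0.57 and -0.20 with knockout array 1 alone, and Fosl2 and Jund ranged from -0.38 to 0.32 and from -0.067 to 0.24 when each array was left out. The causes were not tested. Same-numbered arrays deviated together with r = 0.255, -0.0352 and -0.0389, so that the numbers were not taken as pairs; in the replicate block, the AP-1 count was 5. The filter at the 60th percentile leaves out Fosl2. Dim probe sets of Fos, Fosl1 and Atf3 have no test in the reported fit, and with no detection calls used here their distance from background is unknown.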

Other observations

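Some members and bZIP relatives read lowest among the knockout arrays on array 2, a pattern picked after its values were seen and not tested. Fosb, Fosl2, Fosl1, the tested Atf3 probe set, Crem and Nfil3 were among them, though their highest array differed. Mafg, Mafk, Nfe2l2, Atf2, Atf4, Atf5, Atf6 and Cebpd read lowest there too. Batf3, Nfe2l1, Cebpa, Cebpb, Cebpg, Ddit3, both Junb sets and the dim Atf3 sets did not. The share of all probe sets that read lowest there was not counted. Crem read 9484, 7131 and 14191 in knockout arrays 1 to 3, against 7569, 6274 and 7996 in wild-type arrays. Nfil3 read 7007, 1705 and 5162 in knockout arrays, against 3824, 1689 and 2731 in wild-type arrays. Fos, in contrast, read highest on knockout array 2 on its brighter probe set, as did Jun, Jund and the dimmer Junb set.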
